A study of Homo sapiens with 9 samples.

Results

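Lysosomes are acidic organelles in which hydrolases break down proteins, glycans, lipids and sulfated polymers. Cathepsins are their main proteases, and sulfatases remove sulfate groups only after the endoplasmic reticulum enzyme SUMF1 has converted a cysteine of their active site to formylglycine. Many of these genes are targets of the transcription factor TFEB, which enters the nucleus when the kinase mTORC1 at the lysosomal surface is inactive. The set described here was chosen by gene symbol from a list of 38 genes for lysosomal hydrolases, cathepsins, sulfatases, their activators and lysosomal membrane proteins. Of these, 37 were found among the 16630 genes of the table, and NEU1 was not analysed here. All 37 passed the filter on low values, a mean of at least 0.5 FPKM (fragments scaled by transcript length and library size).

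The cells were H1650, a human non-small cell lung cancer line, sampled on day 3 of siRNA treatment at 20 nM with a lipid reagent, and each group had 3 RNA libraries. The control group received a non-targeting pool. In the siMENA group a pooled siRNA targeted every ENAH transcript (ENAH encodes the actin regulator hMENA), and in the siMENA11a group a mix was directed at exon 11a, which marks the epithelial isoform hMENA11a. ENAH measured 27.4 ± 2.3 FPKM in control, 5.26 ± 0.73 under siMENA and 10.4 ± 0.5 under siMENA11a (mean ± SD, n = 3 here and below). Both siRNA groups derive from the same cell line as the control, the values are per gene and not per isoform, and each siRNA preparation is a single pool.

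The libraries held FPKM sums of 558754 to 592930, and total depth is not known, although the spacing of low values gave relative depths of about 1.15 to 1.61 for the other 8 libraries against control replicate 1. All 6 epithelial markers were expressed, with summed levels of 4820 to 5135 FPKM in control, 4693 to 4893 under siMENA and 3939 to 4425 under siMENA11a. Under siMENA11a 3 of these 6 were called lower (CDH1 by 0.42, KRT8 by 0.35 and KRT18 by 0.40), and under siMENA 1 was (KRT7 by 0.41, limma adjusted p 0.00590, to 75.0% of control), and their part in the results below was not tested. Leukocyte markers (3 of 8 found) summed to 3.96 to 6.78 FPKM in control, 3.99 to 6.07 under siMENA and 4.83 to 8.97 under siMENA11a. LYZ stood at 0.178 FPKM or less in the libraries that list it, so the other genes found carried nearly all of these sums. The 2 leukocyte genes tested were not called against control, with median log2 differences of -0.03 under siMENA and 0.24 under siMENA11a. Fibroblast and endothelial markers, with 3 genes found of 6 and of 4, summed to at most 3.79 and 0.49 FPKM in any library.

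Fold changes are differences of log2(FPKM + 1), a scale on which changes of low genes come out too small, and a gene passed when limma's adjusted p (Benjamini-Hochberg over 13273 genes) was under 0.05. These p-values rest on the spread between libraries within groups, taken over all 3 groups together and moderated by limma across genes. The labels name no separate cultures for the 3 libraries of a group. In bulk libraries less RNA per cell and fewer cells with the RNA cannot be told apart. In siMENA11a against control 4 of the 37 lysosomal genes rose and 8 fell, beside 8.16% of all genes tested that were called higher, 11.3% called lower and 19.5% called either way. In siMENA against control 5 rose and 3 fell, beside 10.3%, 8.24% and 18.6% of all genes tested. The median log2 difference of the 37 genes was 0.04 under siMENA11a and 0.06 under siMENA, against -0.01 and 0.04 over all genes tested. Nearly all changes were small: only CTSB and SUMF1 under siMENA11a changed at least 2-fold, and every lysosomal gene called under siMENA differed by less than 0.5 on the log2 scale. Changes of at least 2-fold were rare over all genes tested too, at 0.339% under siMENA11a and 0.377% under siMENA.

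**Figure D1:**
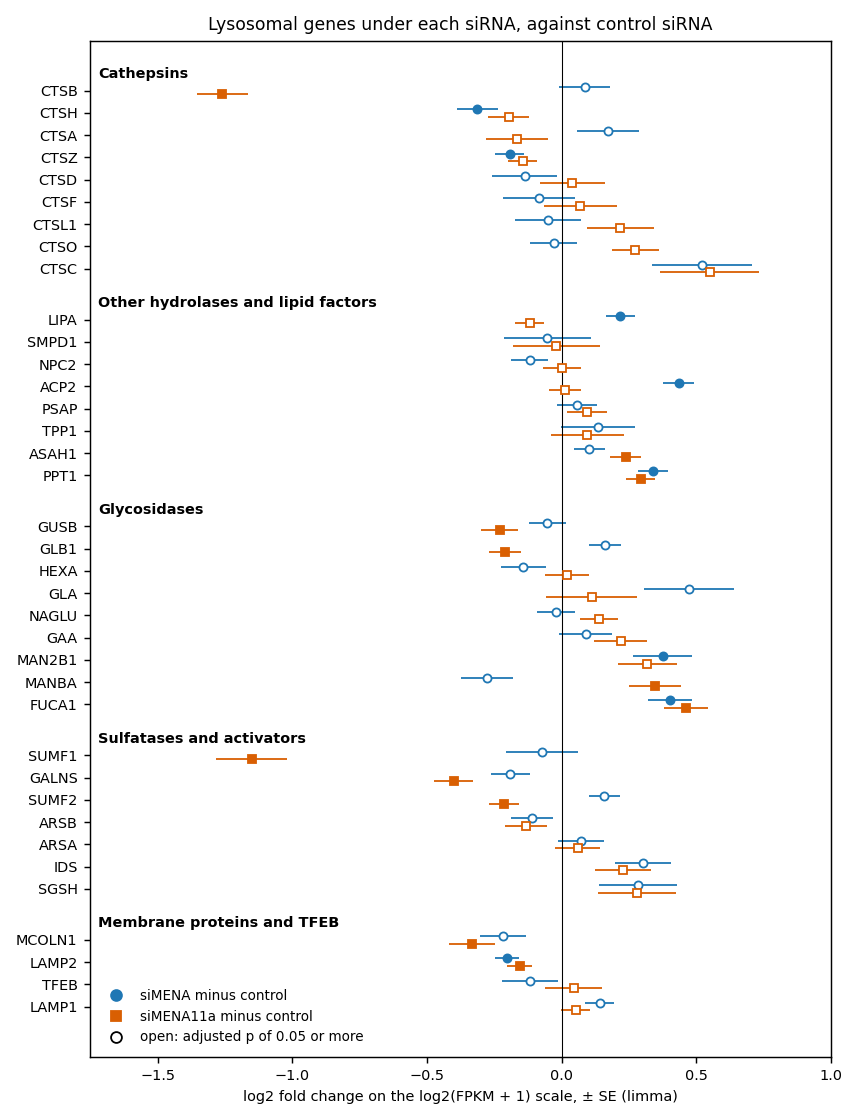
Log2 fold change (± SE, limma) of each of the 37 lysosomal genes under siMENA (circles) and siMENA11a (squares) against the same control libraries, on the log2(FPKM + 1) scale, grouped by role; filled symbols passed at an adjusted p under 0.05. CTSB at -1.26 and SUMF1 at -1.15 under siMENA11a stand far to the left of the other genes, which lie between -0.40 and 0.55.

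**Figure D2:**
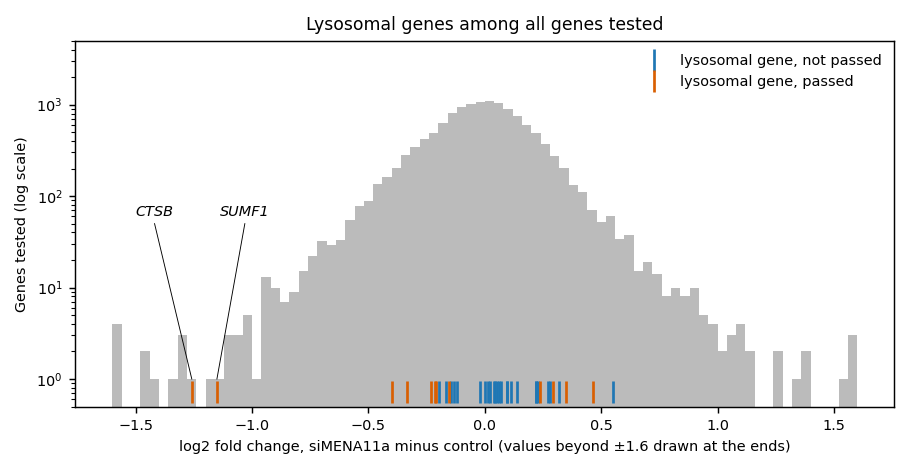
Histogram of the log2 fold change of all 13273 genes tested in siMENA11a against control (gene number on a log axis), with a tick for each of the 37 lysosomal genes. The ticks of CTSB and SUMF1 lie in the left tail, and the other 35 lie within the bulk of the genes.

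CTSB encodes cathepsin B, a cysteine protease with both endo- and exopeptidase activity. Replicates 1 to 3 of control gave 59.9, 67.3 and 59.96 FPKM, against 61.9, 74.7 and 62.7 FPKM under siMENA and 28.8, 23.7 and 24.1 FPKM under siMENA11a. The 3 siMENA11a libraries lay below all other libraries, while the control and siMENA libraries overlapped. Cathepsin B RNA was at 40.9% of control under siMENA11a, a fall by 1.26 on the log2 scale (SE 0.09, limma adjusted p 6.48e-05), and at 38.5% of the siMENA level (log2 difference -1.34, adjusted p 1.46e-05). Under siMENA the difference from control was 0.09 (adjusted p 0.563).

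None of the other 8 cathepsins passed in siMENA11a against control, although CTSH and CTSZ were lower there in every library. The summed level of these 8 was 673 ± 28 FPKM in control, 653 ± 21 under siMENA and 678 ± 34 under siMENA11a. CTSB accounted for 7.88% to 9.45% of the FPKM of all 9 cathepsins in the control libraries, 8.47% to 10.4% under siMENA and 3.37% to 3.89% under siMENA11a. CTSD, the aspartic protease cathepsin D and the most abundant of the 9, measured 163, 147 and 173 FPKM in control, 142, 129 and 171 under siMENA and 187, 169 and 143 under siMENA11a. These groups overlapped, and neither comparison with control passed (-0.14 and 0.04).

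**Figure D3:**
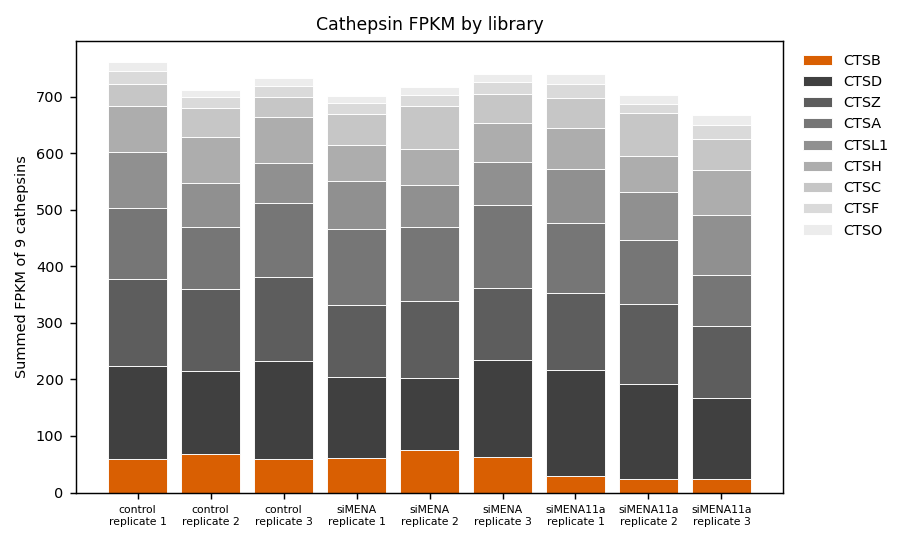
Stacked FPKM of the 9 cathepsins in each of the 9 libraries, with CTSB in orange and the others in grey. The bars reach 668 to 761 FPKM, and the CTSB part is smaller in the 3 siMENA11a libraries than in the other 6.

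CTSH and CTSZ fell under siMENA. CTSH, an aminopeptidase, measured 82.6, 81.1 and 81.2 FPKM in control, 63.2, 64.7 and 68.8 under siMENA and 71.8, 63.3 and 79.1 under siMENA11a. All siMENA libraries lay below all control libraries, and CTSH fell by 0.31 on the log2 scale (SE 0.07, limma adjusted p 0.0177). CTSZ, a carboxypeptidase, measured 154, 146 and 148 FPKM in control, 128, 136 and 129 under siMENA and 137, 140.3 and 128 under siMENA11a, and fell by 0.19 under siMENA (adjusted p 0.0351). All siMENA11a libraries of both genes also lay below the control libraries, with differences that did not pass (-0.20 and -0.14, adjusted p 0.0944 and 0.0927). The siMENA call of CTSH ended without replicate 1 or 3 of control or replicate 1 or 2 of siMENA (adjusted p 0.0554 to 0.0710, against 0.00529 to 0.0710 over its alternatives). That of CTSZ ended without any 1 of the 6 libraries and without the mean-variance trend (0.0537 to 0.118 without a library, 0.0201 to 0.118 over all).

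CTSC, which activates granule serine proteases, differed more than these without passing. It measured 38.0, 52.4 and 35.1 FPKM in control, 55.1, 74.8 and 51.4 under siMENA and 53.7, 75.9 and 55.1 under siMENA11a. Replicate 2 was the highest library of each of the 3 groups, the control and siMENA ranges overlapped, and all siMENA11a libraries lay above control. The log2 differences were 0.52 and 0.55 (limma adjusted p 0.0773 and 0.0640). With the replicate number as a block both differences passed (adjusted p 0.000290 under siMENA and 0.000252 under siMENA11a), and both also passed without control replicate 2. CTSA, a carboxypeptidase that also protects lysosomal beta-galactosidase, was lower under siMENA11a than under siMENA by 0.34 (adjusted p 0.0412). Exons of CTSA overlap those of PLTP over 200 bases and of NEURL2 over 244 bases on the opposite strand. In the same comparison PLTP differed by -0.34 (adjusted p 0.0185) and NEURL2 by 0.51 (adjusted p 0.00555), and their part in the CTSA values was not tested. CTSO was higher there by 0.30 (adjusted p 0.0224). The CTSA call ended without any 1 siMENA replicate or siMENA11a replicate 3, and with no filter, median-ratio scaling, no trend or only these 2 groups (0.0619 to 0.12; 0.0219 to 0.12 over its alternatives), and the CTSO call without replicate 1 or 3 of either group (0.0652 to 0.0801; 0.00554 to 0.0801). CTSF and CTSL1, endopeptidases, passed in no comparison, with log2 differences of -0.08 to 0.27.

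SUMF1, the formylglycine-generating enzyme on which all sulfatases depend, was the other gene that changed at least 2-fold. It measured 36.9, 30.5 and 33.1 FPKM in control, 32.1, 30.6 and 32.4 FPKM under siMENA and 15.8, 11.1 and 17.2 FPKM under siMENA11a. The siMENA11a libraries lay below all others without overlap, and the siMENA libraries lay within the control range. SUMF1 was at 44.0% of control under siMENA11a, a fall by 1.15 on the log2 scale (SE 0.13, limma adjusted p 0.000578), and below siMENA by 1.08 (adjusted p 0.000262). Its difference under siMENA was -0.07 (adjusted p 0.742).

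SUMF2 is a paralog of SUMF1 that lacks the enzyme activity and can bind SUMF1. It was the more abundant of the pair, at 96.8, 91.6 and 99.3 FPKM in control, 109.7, 104 and 108 under siMENA and 87.9, 79.8 and 80.2 under siMENA11a. The siMENA libraries lay above and the siMENA11a libraries below the control libraries. SUMF2 fell by 0.21 under siMENA11a (limma adjusted p 0.0261), while its difference of 0.16 under siMENA did not pass (adjusted p 0.0766; 0.0486 with the replicate number as a block). Between the siRNA groups it differed by -0.37 (adjusted p 0.000817). The call against control ended without replicate 1 or 3 of control or replicate 2 or 3 of siMENA11a, and in a fit of these 2 groups alone (0.0621 to 0.0996; 0.0156 to 0.0996 over its alternatives). SUMF1 made up 25.0% to 27.6% of the FPKM of the pair in control, 22.6% to 23.1% under siMENA and 12.2% to 17.7% under siMENA11a. Exons of SUMF2 overlap those of PHKG1 on the opposite strand over 388 bases. PHKG1 did not enter the fit, and its part in the SUMF2 values was not tested.

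Earlier results of these data had picked the 7-base words CCAAGGA and CAAGGAA, both part of ENAH exon 11a, as frequent in the 3' UTRs of genes that fell under siMENA11a, so counts among lower genes are not independent of that choice. The siRNA sequences were not used here. Exon 11a lies at chr1:225504991-225505053 of GRCh38 on the minus strand and is 63 bases long. The stretches below show the words in capitals, 5' to 3', for exon 11a (chr1:225505024-225505053) and for 3 lysosomal genes. Those 3 genes fell under siMENA11a and carry a word in an annotated 3' UTR of GENCODE 29. CTSB also fell and carries a word, and its stretches are not shown here. The SUMF1 stretches lie at chr3:4362112-4362141 and chr3:4361517-4361546, that of LAMP2 at chrX:120438949-120438978 and that of GALNS at chr16:88813826-88813855, all on the minus strand.
ENAH exon 11a: acgggattctCCAAGGAAaaatcagattgt
SUMF1 stretch nearer the stop codon: aCCAAGGAAagtcttccccagtCCAAGGAg
SUMF1 stretch farther from it: actttgtttttCCAAGGAAatcagtgtctt
LAMP2: ggtttttccaaCCAAGGAAtttaaaactgt
GALNS: tcctttgtccaCAAGGAAtttccctggacg

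A word stood in 9 of the 36 lysosomal genes with a searched 3' UTR, 25.0%, beside 26.5% of all 12184 genes tested and searched. Among the 8 lysosomal genes that fell under siMENA11a, 4 carried one (CTSB, SUMF1, GALNS and LAMP2), beside 39.1% of all genes called lower. The longest annotated 3' UTR of SUMF1, 998 bases, held 5 matches to the 2 words and that of CTSB, 2601 bases, held 3, counting overlapping matches. The other 5 carriers, ACP2, CTSC, SGSH, SMPD1 and TPP1, were not called lower, with log2 differences of 0.01, 0.55, 0.28, -0.02 and 0.10 under siMENA11a. Over all 9 carriers the median difference was -0.02, and over the 27 genes searched that carry none it was 0.05. A match of letters is a description, and its part in these falls was not tested.

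Of the 5 sulfatases only GALNS passed, in siMENA11a against control and between the siRNA groups. GALNS removes sulfate from keratan and chondroitin sulfate and measured 24.9, 26.9 and 28.4 FPKM in control, 21.6, 23.7 and 24.6 under siMENA and 20.0, 21.3 and 18.7 under siMENA11a. All libraries of both siRNA groups lay below the control libraries. GALNS fell by 0.40 under siMENA11a (SE 0.07, limma adjusted p 0.00487), and its difference of -0.19 under siMENA did not pass (adjusted p 0.0940). The siMENA11a level was also below siMENA by 0.21 (adjusted p 0.0443), and this was lost without siMENA replicate 2 or 3 or siMENA11a replicate 1 or 3, and in the same 4 settings as for CTSA (0.0956 to 0.133; 0.0291 to 0.133 over its alternatives). Exons of GALNS overlap those of TRAPPC2L on the opposite strand over 27 bases, and TRAPPC2L rose by 0.33 under siMENA (adjusted p 0.0194), fell by 0.35 under siMENA11a (adjusted p 0.0162) and differed between the siRNA groups by -0.68 (adjusted p 0.000219). Its part in the GALNS values was not tested.

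The other 4 sulfatases did not pass in any comparison. ARSA, which acts on sulfatide, measured 7.22, 6.98 and 7.79 FPKM in control, 7.47, 7.36 and 8.44 under siMENA and 8.42, 7.84 and 6.83 under siMENA11a, with overlapping groups. ARSB, which acts on dermatan and chondroitin sulfate, measured 6.26, 7.65 and 6.45 FPKM in control, 5.91, 6.4 and 6.27 under siMENA and 5.94, 6.10 and 6.23 under siMENA11a. Its log2 differences were -0.11 and -0.13. IDS, the sulfatase of the first step of heparan and dermatan sulfate breakdown, measured 17.8, 18.1 and 17.8 FPKM in control, 21.1, 22.02 and 23.8 under siMENA and 17.8, 25.4 and 20.8 under siMENA11a. IDS was at 125% of control under siMENA and 119% under siMENA11a. All siMENA libraries were above control (0.30, adjusted p 0.0732; 0.0425 with the replicate number as a block), and the siMENA11a libraries spread more widely. The value of IDS is uncertain because a near-identical pseudogene lies next to it. SGSH, which removes sulfate from heparan sulfate, measured 4.38, 4.73 and 5.09 FPKM in control, 6.09, 4.41 and 7.84 under siMENA and 6.15, 5.95 and 5.76 under siMENA11a (129% and 126% of control, 0.28 in both comparisons, adjusted p 0.205 and 0.211).

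ACP2, LIPA and PPT1 rose under siMENA. ACP2, the lysosomal acid phosphatase, measured 20.3, 20.2 and 21.2 FPKM in control, 28.01, 28.4 and 28.1 under siMENA and 22.3, 20.9 and 19.2 under siMENA11a. The siMENA libraries stood apart from all other libraries, with a rise of 0.43 on the log2 scale (SE 0.06, limma adjusted p 0.00128). Exons of NR1H3 on the opposite strand overlap ACP2 over 189 bases, and NR1H3 differed by 0.22 without passing. For ACP2 siMENA11a was at 0.01 from control (adjusted p 0.902) and below siMENA by 0.42 (adjusted p 0.000540). LIPA, the acid lipase that frees cholesterol from its esters, measured 65.1, 62.8 and 67.8 FPKM in control, 76.98, 73.3 and 77.8 under siMENA and 62.5, 57.2 and 60.5 under siMENA11a. It rose by 0.22 under siMENA (adjusted p 0.0203) and was lower under siMENA11a than under siMENA by 0.34 (adjusted p 0.00111). The call was lost when control replicate 1 or 2, or siMENA replicate 1 or 3, was left out (0.0582 to 0.0732; 0.0109 to 0.0732 over its alternatives).

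PPT1, which removes palmitate from proteins, rose in both siRNA groups. It measured 98.1, 97.2 and 108 FPKM in control, 130.5, 127 and 126 under siMENA and 126, 121 and 125 under siMENA11a, with every siRNA library above every control library. The rises were 0.34 and 0.29 on the log2 scale (limma adjusted p 0.00309 and 0.00559), from comparisons that share the control libraries. Annotated exons of PPT1 overlap those of CAP1 on the opposite strand over 1189 bases, and CAP1 differed by 0.04 and 0.02 without passing. ASAH1, the acid ceramidase, measured 40.4, 39.9 and 40.2 FPKM in control, 43.9, 43.8 and 42.0 under siMENA and 47.5, 44.3 and 51.3 under siMENA11a. It rose by 0.24 under siMENA11a (adjusted p 0.0177), and the call was lost when control replicate 2 or 3 or siMENA11a replicate 1 was left out (0.0507 to 0.0575; 0.00750 to 0.0575 over its alternatives).

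The other lipid and peptide factors passed in no comparison. PSAP, the precursor of the saposins that present sphingolipids to their hydrolases, was the most abundant of the 37 genes, with 580.4 to 695 FPKM over the 9 libraries. NPC2, the cholesterol carrier of the lysosomal lumen, ranged from 50.8 to 61.7 FPKM. SMPD1, the acid sphingomyelinase, and TPP1, a tripeptidyl peptidase, were low, at 2.72 to 4.75 and 2.38 to 3.83 FPKM. Their differences from control lay between -0.12 and 0.14 on the log2 scale.

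Among the 9 glycosidases 2 rose under siMENA, and 2 rose and 2 fell under siMENA11a, beside 18.6% and 19.5% of all genes called either way. FUCA1, the alpha-fucosidase, rose in both groups: it measured 12.5, 11.5 and 10.2 FPKM in control, 14.97, 15.9 and 15.2 under siMENA and 16.4, 17.3 and 14.6 under siMENA11a. Every siRNA library lay above every control library, with rises of 0.40 and 0.46 (SE 0.08, limma adjusted p 0.00900 and 0.00454). MAN2B1, the lysosomal alpha-mannosidase, measured 4.88, 3.98 and 5.47 FPKM in control, 7.02, 5.57 and 6.85 under siMENA and 6.52, 6.24 and 5.75 under siMENA11a. It rose by 0.38 under siMENA (adjusted p 0.0409) and did not pass under siMENA11a (0.32, adjusted p 0.0699). The MAN2B1 call ended without replicate 1 or 2 of control or replicate 1 or 3 of siMENA (0.0841 to 0.137), and with no filter, median-ratio scaling or a fit of these 2 groups alone (0.0206 to 0.137 over its alternatives).

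MANBA, the beta-mannosidase, was placed in opposite directions by the siRNA groups. It measured 21.5, 20.3 and 22.3 FPKM in control, 17.2, 16.3 and 18.9 under siMENA and 29.01, 23.2 and 30.5 under siMENA11a. The siMENA libraries lay below and the siMENA11a libraries above all control libraries. MANBA rose by 0.35 under siMENA11a (limma adjusted p 0.0318), its difference of -0.28 under siMENA did not pass (adjusted p 0.0733; 0.0149 with the replicate number as a block), and between the siRNA groups it differed by 0.62 (adjusted p 0.000912). The call against control ended without any 1 control replicate, siMENA11a replicate 1 or siMENA11a replicate 3 (0.0624 to 0.102), and in a fit of these 2 groups alone (0.00408 to 0.102 over its alternatives).

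GLB1, the beta-galactosidase used as a marker of lysosomal mass, and GUSB, the beta-glucuronidase, fell under siMENA11a. GLB1 measured 46.6, 42.9 and 46.5 FPKM in control, 51.2, 49.6 and 51.7 under siMENA and 41.0, 36.3 and 40.0 under siMENA11a. Its 3 groups did not overlap: siMENA was above control (0.16, limma adjusted p 0.0836; 0.0355 with the replicate number as a block), siMENA11a below it (-0.21, adjusted p 0.0338), and the siRNA groups differed by -0.37 (adjusted p 0.00107). GUSB, whose value is uncertain because of its many pseudogenes, measured 16.997, 15.7 and 18.1 FPKM in control, 16.8, 16.1 and 15.9 under siMENA and 15.4, 13.4 and 14.1 under siMENA11a, and fell by 0.23 (adjusted p 0.0410). Both siMENA11a calls ended without replicate 1 or 3 of control or replicate 2 of siMENA11a, and that of GUSB also without siMENA11a replicate 3 (0.0806 to 0.112 for GLB1 and 0.0927 to 0.146 for GUSB). They also ended with median-ratio scaling, without the trend and in a fit of these 2 groups alone (0.0126 to 0.112 and 0.0240 to 0.146 over their alternatives).

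The remaining glycosidases passed in no comparison with control. GLA, the alpha-galactosidase, measured 9.88, 12.7 and 9.27 FPKM in control, 16.8, 16.7 and 11.9 under siMENA and 10.2, 14.5 and 10.1 under siMENA11a. The siMENA difference of 0.47 had an adjusted p of 0.0774 (limma), and of 0.00836 with the replicate number as a block, and it also passed without siMENA replicate 3. HEXA, the alpha subunit of beta-hexosaminidase, ranged from 77.8 to 100.4 FPKM, NAGLU, which acts on heparan sulfate, from 14.3 to 18.3 FPKM and GAA, which degrades glycogen, from 8.94 to 12.4 FPKM over the 9 libraries.

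**Figure D4:**
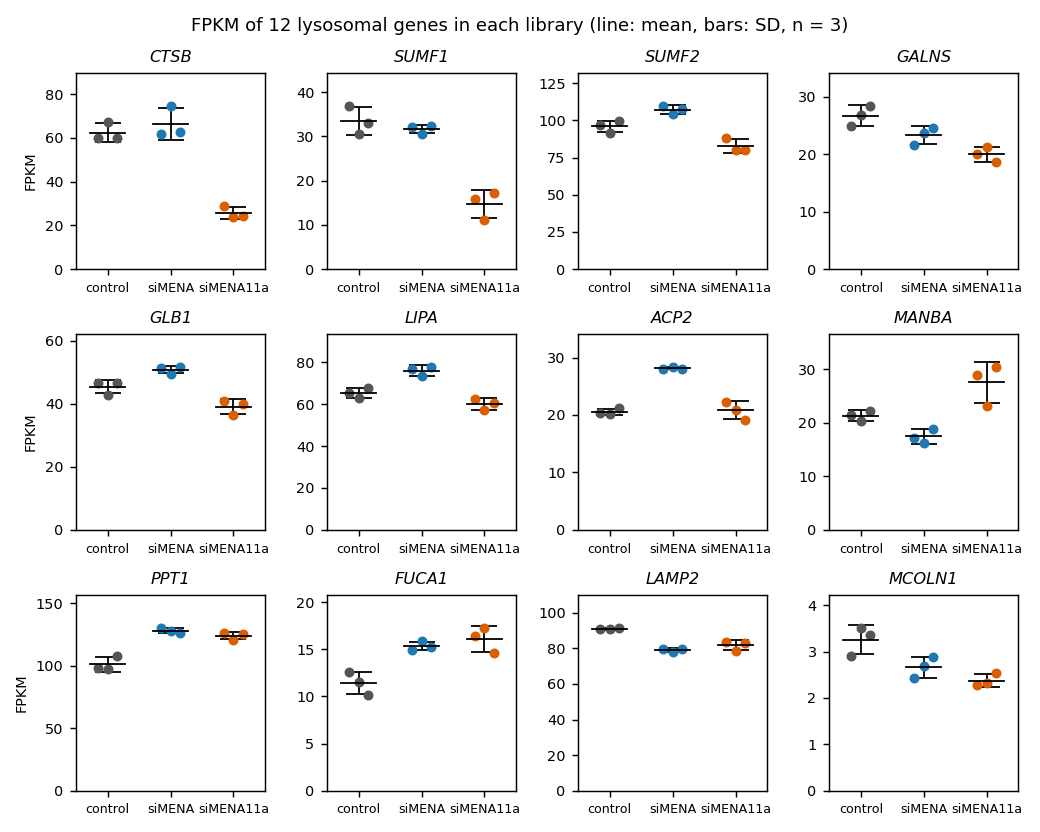
FPKM of 12 lysosomal genes in each library of the control, siMENA and siMENA11a groups (points: libraries in replicate order, line: mean, bars: SD, n = 3; each axis starts at 0). CTSB and SUMF1 are low only in the siMENA11a libraries, ACP2 is high only in the siMENA libraries, and PPT1 and FUCA1 are above control in both siRNA groups.

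Of the membrane proteins, LAMP2 fell in both siRNA groups and LAMP1 passed in neither. LAMP2, a receptor of chaperone-mediated autophagy in one of its isoforms, measured 90.7, 90.7 and 91.6 FPKM in control, 79.4, 77.8 and 79.6 under siMENA and 83.5, 78.3 and 83.0 under siMENA11a. All 6 siRNA libraries lay below the control libraries, by 0.20 under siMENA and 0.16 under siMENA11a (limma adjusted p 0.0135 and 0.0387). The siMENA call ended without control replicate 3 or siMENA replicate 2 (0.0537 to 0.0552; 0.00820 to 0.0552 over its alternatives). The siMENA11a call ended without any 1 of the 6 libraries, with median-ratio scaling, without the trend and in a fit of these 2 groups alone (0.0280 to 0.116). LAMP1, the other main glycoprotein of the lysosomal membrane, measured 88.3, 80.998 and 82.7 FPKM in control, 91.6, 89.9 and 96.7 under siMENA and 89.0, 84.2 and 88.0 under siMENA11a (0.14 and 0.05, adjusted p 0.0949 and 0.543).

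MCOLN1, the calcium channel that lysosomes open on starvation, fell under siMENA11a, whereas TFEB passed in no comparison. MCOLN1 measured 2.90, 3.52 and 3.35 FPKM in control, 2.42, 2.68 and 2.88 under siMENA and 2.27, 2.32 and 2.53 under siMENA11a. Both siRNA groups lay below control without overlap, and the fall of 0.33 under siMENA11a passed (adjusted p 0.0228) while the siMENA difference of -0.22 did not (adjusted p 0.104). The call ended without replicate 2 or 3 of control or replicate 1 or 2 of siMENA11a (0.0503 to 0.0779; 0.0118 to 0.0779 over its alternatives). TFEB measured 4.97, 3.76 and 4.79 FPKM in control, 4.48, 4.05 and 3.67 under siMENA and 4.44, 4.39 and 5.16 under siMENA11a, with overlapping groups (-0.12 and 0.04, adjusted p 0.470 and 0.806). RNA levels do not report where the TFEB protein is in the cell.

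TFEB and its relatives bind an E-box, CACGTG, best within the longer word TCACGTGA. Both are their own reverse complement, so a search reads both strands at once, and the longer word contains the shorter. RefSeq promoter windows of GRCh38.p14, 300 bases around the start of the gene, were found for 27 of the 37 genes. CTSB, ASAH1, PSAP, MANBA, NAGLU, ARSA, HEXA, LAMP2, SGSH and CTSO had no window and were not searched. CACGTG stood in 9 of the 27 (33.3%), beside 8.77% of all genes with a window and 7.26% of all windows, and TCACGTGA in 5 (18.5%), beside 1.18% of genes and 0.980% of windows. The shares of genes cover all 27305 genes with a window, not only those tested here. These 30-base stretches from the 5 genes with the longer word, and from SUMF1 with the shorter one, show the word in capitals, 5' to 3' on the strand of the gene. They lie at chr20:45891298-45891327 (CTSA), chr13:113297199-113297228 (LAMP1), chr17:80101493-80101522 (GAA) and chr19:7522571-7522600 (MCOLN1) on the plus strand, and at chr16:88857104-88857133 (GALNS) and chr3:4467265-4467294 (SUMF1) on the minus strand.
CTSA promoter: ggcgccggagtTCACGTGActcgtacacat
LAMP1 promoter: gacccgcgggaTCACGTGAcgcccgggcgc
GAA promoter: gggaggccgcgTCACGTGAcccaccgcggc
MCOLN1 promoter: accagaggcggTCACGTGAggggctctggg
GALNS promoter: caggcaccgcgTCACGTGAcccgccgctgg
SUMF1 promoter: ggagggctcagcCACGTGaccaaccgggtc

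The 5 genes with the longer word did not move in one direction. Under siMENA11a their log2 differences were -0.17 for CTSA, 0.05 for LAMP1, 0.22 for GAA, -0.33 for MCOLN1 and -0.40 for GALNS, of which the last 2 passed. Under siMENA they were 0.17, 0.14, 0.09, -0.22 and -0.19, and none passed. Besides SUMF1, the genes CTSD, CTSF and ARSB hold only the shorter word. Under siMENA11a SUMF1 fell by 1.15, while these others differed by 0.04, 0.07 and -0.13 without passing. The part of either word in these values was not tested.

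The direct comparison of siMENA11a with siMENA asked which lysosomal genes the 2 siRNA preparations affected differently. Here 2 of the 37 genes were higher (MANBA and CTSO) and 8 lower (CTSB, SUMF1, ACP2, SUMF2, GLB1, LIPA, CTSA and GALNS), beside 14.4%, 22.2% and 36.6% (either way) of all genes tested. Their median was -0.00 against -0.05 over all genes. The values of these genes are given above. With median-ratio scaling of the libraries 4 were higher and 6 lower, beside 17.4% and 17.5% of all genes. Of the 10 calls, 7 held under every alternative tried, those of CTSB, SUMF1, ACP2, SUMF2, GLB1, LIPA and MANBA. PPT1, FUCA1 and LAMP2, which passed with the same sign in both groups against control, differed between them by -0.05, 0.06 and 0.05 without passing.

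Calls were lost when a library was left out, and in the comparisons with control smaller shares of all genes tested passed. Some counts among the 37 rose instead. Higher calls in siMENA11a against control became 6 without control replicate 1 and 5 without siMENA11a replicate 2, beside 5.57% and 7.28% of all genes. Those in siMENA against control became 6 without siMENA replicate 2, beside 5.91%. Between the siRNA groups 9 were lower and 7 higher without siMENA11a replicate 2, beside 22.3% and 14% of all genes. In siMENA11a against control the 8 lower calls became 4 without control replicate 1 and 3 without control replicate 3 or without siMENA11a replicate 2, and the 4 higher calls became 2 without control replicate 3. The shares of all genes called lower in these fits were 8.47%, 6.79% and 10.8%, against 11.3% with all libraries, and the share called higher without control replicate 3 was 4.51%, against 8.16%. With median-ratio scaling 4 were higher and 5 lower, beside 9.22% and 10.5% of all genes. CTSB, SUMF1, GALNS, PPT1 and FUCA1 kept their calls under every alternative. In siMENA against control the 5 higher calls became 3 without control replicate 1 or siMENA replicate 1, and the 3 lower calls became 1 without either of these and none without control replicate 3 or siMENA replicate 2. The share of all genes called higher was 5.74% without control replicate 1 and 4.89% without siMENA replicate 1, against 10.3%, and the share called lower was 5.24% to 5.97% in these 4 fits, against 8.24%. ACP2, PPT1 and FUCA1 kept theirs throughout. With the replicate number as a block 10 genes were higher and 4 lower in siMENA against control, beside 13.1% and 10.6% of all genes, adding CTSC, GLA, GLB1, IDS, SUMF2 and, on the lower side, MANBA.

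Other genes of the lysosomal system also went both ways. The counts of each list stand beside the same shares of all genes tested, 10.3% higher and 8.24% lower under siMENA and 8.16% and 11.3% under siMENA11a. Of 17 subunits and accessory proteins of the V-ATPase, the proton pump that acidifies the lysosome, 3 rose and 2 fell under siMENA, and 5 rose and 1 fell under siMENA11a. Without control replicate 1 none of these siMENA11a calls passed in limma, and 1 rise did without replicate 2 or 3 of control, without siMENA11a replicate 3, or in a fit of these 2 groups alone. The rises numbered 2 without siMENA11a replicate 1 and 3 with no trend. Under siMENA 6 V-ATPase genes were lower with median-ratio scaling. ATP6V1C1 and ATP6V0E1 fell by 0.52 and 0.30 under siMENA, while ATP6V0A2 and ATP6V1B2 rose by 0.40 and 0.33. Of 20 further hydrolases and activators tested, 3 rose and 2 fell under siMENA, and 4 rose and 5 fell under siMENA11a. With the replicate number as a block 5 rose and 4 fell under siMENA. DNASE2, the acid nuclease, went from 43.4 FPKM in control to 54.4 under siMENA and 24.9 under siMENA11a, a rise of 0.32 and a fall of 0.78 (limma adjusted p 0.00784 and 7.88e-05). LGMN, the asparaginyl protease that processes cathepsins, likewise rose by 0.56 under siMENA and fell by 0.29 under siMENA11a. CTSS, cathepsin S, went from 0.79 FPKM in control to 1.93 under siMENA11a, a rise of 0.71, and CTSL2, cathepsin V, went from 28.2 to 20.6 FPKM, a fall by 0.43 (adjusted p 0.00975; chosen after its value was seen). GM2A, the activator of ganglioside breakdown, fell by 0.59 under siMENA11a.

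Among 12 genes of sorting to the lysosome, 3 rose and 1 fell under siMENA, and 1 rose and 2 fell under siMENA11a. The single siMENA11a rise ended without control replicate 1 or siMENA11a replicate 1. The adaptor subunit AP3B1 rose by 0.30 under siMENA. SORT1, a sorting receptor, fell by 0.31 under siMENA, a call that ended without replicate 1 or 3 of control or replicate 2 of siMENA (limma adjusted p 0.0563 to 0.0719; 0.00457 to 0.0719 over its alternatives). NAGPA, which uncovers the mannose 6-phosphate tag, and the adaptor GGA3 each fell by 0.31 under siMENA11a. Their calls ended without any 1 control replicate or siMENA11a replicate 3, that of NAGPA also without siMENA11a replicate 1 and that of GGA3 in a fit of these 2 groups alone (0.0521 to 0.1003; 0.0240 to 0.1003 over their alternatives). Of 17 further membrane proteins tested, 3 rose and 1 fell under siMENA and 1 rose under siMENA11a. Of the 3 rises under siMENA 1 was left without control replicate 1 or 3 or without siMENA replicate 1 or 2. The siMENA11a rise was that of SLC17A5 (0.41, limma adjusted p 0.0476), and it was lost without any 1 library of either group. Without siMENA11a replicate 3 a different gene, TPCN1, passed instead. SLC17A5, the sialic acid exporter, went from 5.47 FPKM in control to 2.62 under siMENA, a fall by 0.84 (adjusted p 0.00234), and differed between the siRNA groups by 1.25 (adjusted p 8.63e-05).

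Of 13 MiT factors and regulators at the lysosome, 2 fell under siMENA, and 2 rose and 1 fell under siMENA11a. MTOR, the kinase of mTORC1, fell by 0.60 under siMENA (limma adjusted p 0.000179), and FNIP1, a partner of folliculin, fell by 0.32 under siMENA11a. The other siMENA fall was lost without any 1 library except control replicate 2, and neither siMENA11a rise passed without any 1 control replicate or siMENA11a replicate 1. Of 3 sulfatases outside the lysosome found in the table, STS, the steroid sulfatase of the endoplasmic reticulum, rose by 0.63 under siMENA11a, from 1.08 to 2.22 FPKM (adjusted p 0.00106). None of 4 cystatins, inhibitors of cysteine cathepsins, passed in limma's comparisons with control, and CST6 passed in siMENA against control with the replicate number as a block (-0.24 without it, adjusted p 0.0811; 0.0316 with it). The medians of these 7 lists lay between -0.12 and 0.20 in the comparisons with control.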

How the data were processed

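Libraries of ribosome-depleted, stranded total RNA were sequenced as read pairs, per the labels' protocols. The authors deposited FPKM values per gene, and the submitters' processing notes name the build hg19. The aligner, quantification tool and annotation: not given in the sources used here. Counts were not used here, so no count test was run. Values with 3 decimals had lost their decimal point: 11524 whole numbers (7.70% of values) were divided by 1000 where they stood at least 100-fold above the median of the gene's decimal values or the gene had none. This touched 67 of 333 values in 19 of the 37 genes, and all values of PSAP and CTSZ. Genes lacking a value in any library (1286) did not enter the fit.

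Log2(FPKM + 1) values of 13273 genes were fitted with limma 3.58.1 in R 4.3.3, over all 9 libraries (group term, mean-variance trend, 6 residual degrees of freedom), and the script was tested on simulated data. Members and lists were chosen with earlier results of these data known. Genes with a call against control, and the sulfatases, activators, LAMP1, LAMP2, CTSB, CTSD, TFEB and MCOLN1, were given by library. CTSC, GLA and the calls between the siRNA groups were added after their values were seen. From each further list, up to 4 passing genes with the largest change were named.

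Deviations from the group means correlated between same-numbered control and siMENA libraries at 0.124, 0.378 and 0.196, each over the 0.1 taken here as pairing, so blocked values stand beside that comparison where they change a call. Control replicate 1 and siMENA replicate 3 also reached 0.113.

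Word and motif searches used GENCODE 29 and RefSeq sequences, matched by symbol, on builds other than hg19. Strand use in the authors' counting is not stated, and 7 of the 37 genes overlap exons of a coding gene on the opposite strand. Exons of CTSD (1304 bases), IDS (1438), MAN2B1 (435), GLB1 (83) and MCOLN1 (6) overlap those of a coding gene on the same strand. The part of these overlaps in the values was not tested.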

Additional observations from a re-analysis of the deposited data

How the results depend on the processing

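Alternatives were a pseudocount of 0.1 FPKM, no filter, a filter of 2 FPKM, median-ratio scaling, the replicate number as a block, a fit of only the 2 groups compared, no mean-variance trend, genes with a divided value left out, and each library left out in turn. No called fold change reversed its sign. Lysosomal genes called lower and higher against control numbered 3 and 5 for siMENA and 8 and 4 for siMENA11a, and 8 and 2 between the siRNA groups. With genes that hold a divided value left out, which removes 19 of the 37, these became 1 and 3, 5 and 2, and 3 and 0. In that last count limma called none higher among 18 genes. The shares of all genes in these fits called lower and higher were 6.65% and 8.63%, 8.95% and 7.15%, and 19.4% and 12.7%. For siMENA11a against control the lower calls became 5 with median-ratio scaling, 4 in a fit of these 2 groups alone and 5 without the trend. The shares of all genes called lower there were 10.5%, 8.86% and 10.6%. For siMENA11a against siMENA the higher calls became 4 with median-ratio scaling, beside 17.4% of all genes. The cause was not tested.

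With the replicate block the higher calls became 10 in siMENA against control and 7 in siMENA11a against control, beside 13.1% and 11.2% of all genes. For siMENA11a against control the same-numbered libraries correlated at 0.206, 0.426 and -0.0302, so there they share only a number. Leaving out 1 library gave 0 to 2 lower and 3 to 6 higher calls in siMENA against control, 3 to 6 and 2 to 6 in siMENA11a against control, and 6 to 9 and 1 to 7 in siMENA11a against siMENA, with 7 without siMENA11a replicate 2 and 1 without siMENA replicate 3, siMENA11a replicate 1 or siMENA11a replicate 3. In these last fits the shares of all genes called higher were, in that order, 14%, 12.9%, 11.6% and 12.2%, against 14.4% with all libraries. With no counts, the precision of low values cannot be given.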
